A study of Caenorhabditis elegans with 4 samples.

Results

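Chromosome II of the nematode Caenorhabditis elegans carried 919 of the 6659 peaks in the authors' series-wide list of ZIM-3 binding sites. The peaks were taken as all rows of that list placed on II, with no choice by score or width. The assay was chromatin immunoprecipitation followed by sequencing (ChIP-seq) with an affinity-purified rabbit polyclonal antibody against ZIM-3. Hermaphrodites of the fem-2(b245) strain, genotype fem-2(b245)III, a mutant of the sex determination gene fem-2, were used at 20 °C. The labels call them germline-containing young adults, although the growth protocol describes gravid adults. Extracts came from whole worms, so germline and somatic nuclei were not separated. The 2 ChIP samples, replicates 1 and 2, each have a peak list of their own, with 853 and 175 peaks on II. The 2 samples of input DNA carry the same genotype and have no list here. There was no second strain, stage or antibody, and whether the replicates were separate cultures is not stated.

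ZIM-3 is one of a family of zinc finger proteins that act at pairing centers, regions near 1 end of each worm chromosome that let homologs recognise and pair with each other in meiosis. ZIM-3 is known for its role at chromosomes I and IV, and its relative ZIM-1 serves chromosomes II and III. Chromosome II is thus an autosome whose pairing is not assigned to ZIM-3, with a pairing center towards its left end. Worm autosomes have gene-dense centers and arms that are richer in repeats and recombine more.

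Peaks were placed by their midpoints on the WormBase build WS220, and the length of II, 15.3 Mb, was taken as the largest peak end on it. The left and right arms are the outer 30% of the length on each side and the center is the remaining 40%. The peaks nearest the left boundary, at 4.58 Mb, were II:4556061-4556211 in the arm and II:4641156-4645072 in the center, and the right boundary lay at 10.7 Mb. The score is the authors' own, its scale is not named, and it is read within a list only. Reads and depth per library are unknown, so a missing peak does not show missing binding. Peaks of a list share their libraries and both ChIP samples belong to 1 group. No test was therefore made, and the main values are set beside their counterparts in the replicate lists. The intervals given are Wilson 95% intervals that cover counting error only.

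Chromosome II was among the chromosomes with fewer peaks for their length. It held 60.1 series-wide peaks per Mb, against 62.0 on III, 84.9 on IV, 67.7 on V, 45.5 on X and 66.3 over all nuclear chromosomes. Replicate 1 had 55.8 peaks per Mb on II against 60.6 over the nuclear genome, and replicate 2 had 11.5 against 12.1. The order of II and V differed between the replicate lists: II lay below V in replicate 1, at 55.8 against 57.5, and above it in replicate 2, at 11.5 against 10.5. The series-wide peaks covered 3.03% of II, those of replicate 1 2.77% and those of replicate 2 0.741%.

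The arms of II held most of its peaks. Of the 919 series-wide peaks, 343 lay in the left arm (37.3%, interval 34.3% to 40.5%), 374 in the right arm (40.7%, interval 37.6% to 43.9%) and 202 in the center (22.0%, interval 19.4% to 24.8%). Density was 74.8 peaks per Mb in the left arm, 81.6 in the right arm and 33.1 in the center. The arms together held 78.0% of the peaks on 60% of the length, and were 2.37 times as dense as the center. The same ratio was 1.77 on III, 1.84 on IV, 1.37 on V and 1.88 on X, and 2.23 on I. With peaks within 10 kb merged into 1, the arms of II held 231 of 336 merged peaks (68.8%) and the ratio was 1.47, against 1.64 on III, 1.43 on IV, 1.11 on V, 1.28 on X and 1.34 on I. The ratio on II was thus above that on III by peaks and below it by merged peaks. The ratio over merged peaks was added after the values were seen.

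The arms were the denser zones of II in each replicate list. Their share was 77.6% on II in replicate 1 and 72.6% in replicate 2. On III it was 73.1% in replicate 1 and 63.3% in replicate 2, on IV 74.7% and 60.5%, on V 64.2% and 70%, on X 72.7% and 78.2%, and on I 77% and 80.4%, in the same order. All 6 chromosomes had more peaks in the arms than the 60% of length in both lists, with IV in replicate 2 close to that value.

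The balance of the arms of II was not shared by the lists. Replicate 1 had 341 peaks in the left arm (40%), 321 in the right arm (37.6%) and 191 in the center (22.4%). Replicate 2 had 82 in the left arm (46.9%, interval 39.6% to 54.2%), 45 in the right arm (25.7%, interval 19.8% to 32.7%) and 48 in the center (27.4%). Left-arm peaks outnumbered right-arm peaks 1.06 times in replicate 1 and 1.82 times in replicate 2, whereas their ratio series-wide was 0.917. The right arm was therefore above its share of length in replicate 1 and below it in replicate 2. Among the highest-scoring replicate 1 peaks on II, as many as replicate 2 has there, 83 lay in the left arm (47.4%), 52 in the right arm (29.7%) and 40 in the center (22.9%). This last setting was chosen after the values were seen.

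**Figure D1:**
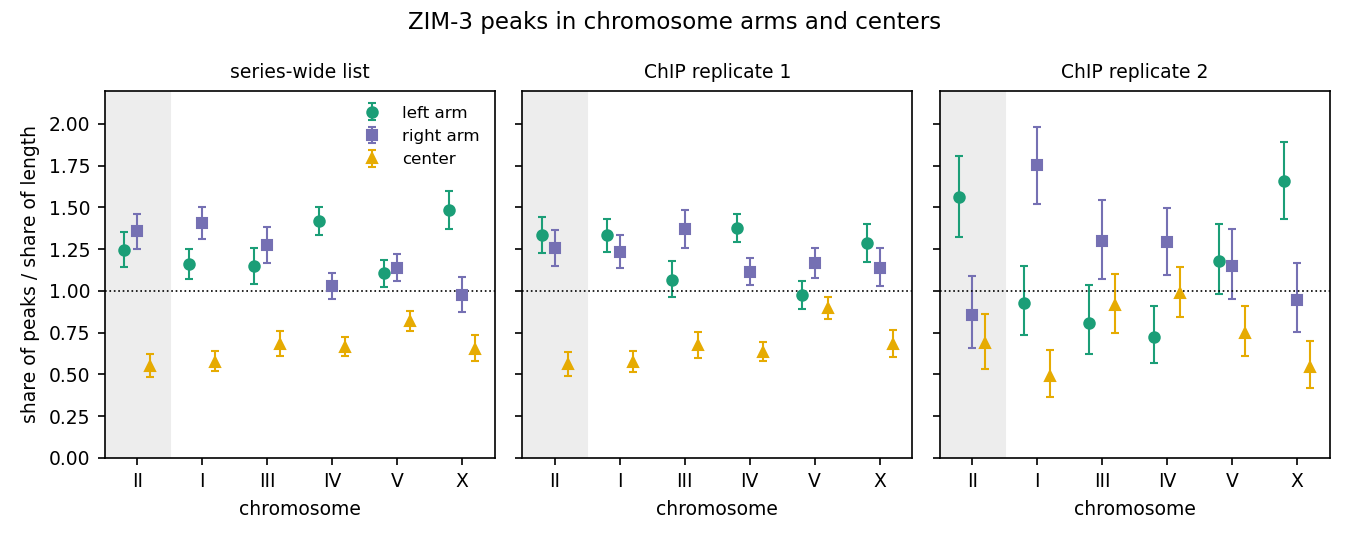
Share of peaks in the left arm, right arm and center of each chromosome divided by the zone's share of length, in the series-wide list and each replicate list; bars are Wilson 95% intervals (counting error only) and the dotted line marks an even spread. On II (shaded) the left arm stands at 1.24, 1.33 and 1.56 in the 3 lists, the right arm at 1.36, 1.25 and 0.857, and the center at 0.550, 0.560 and 0.686.

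In the series-wide list the peaks within the arms were denser towards the ends, although not up to the left tip. In steps of 5% of the length, the second step from the left held 89 series-wide peaks (116.5 per Mb) and the first held 50 (65.4 per Mb). On the right the steps from 90% to 95% and from 95% to 100% held 94 and 88 peaks, or 123.0 and 115.2 per Mb. The sparsest step, just right of the middle, held 12 peaks, or 15.7 per Mb. Replicate 1 had 83 peaks in the second step, 13 in the sparsest and 77 in the last. Replicate 2 had 19, 2 and 14 in the same steps, but its left arm did not thicken outward: the 6 steps there held 13, 19, 10, 9, 19 and 12 peaks from the tip inward. In its right arm the 2 outermost steps held 14 peaks each and the others 4 or 5. Its fullest step, from 60% to 65% of the length, held 22 peaks, against 28 for replicate 1 and 27 series-wide. Over the 20 steps the counts of the replicate lists had a Spearman's rho of 0.53 on II, against 0.51 on III, 0.39 on IV, 0.28 on V and 0.65 on X. These values describe 20 steps that share the same libraries.

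**Figure D2:**
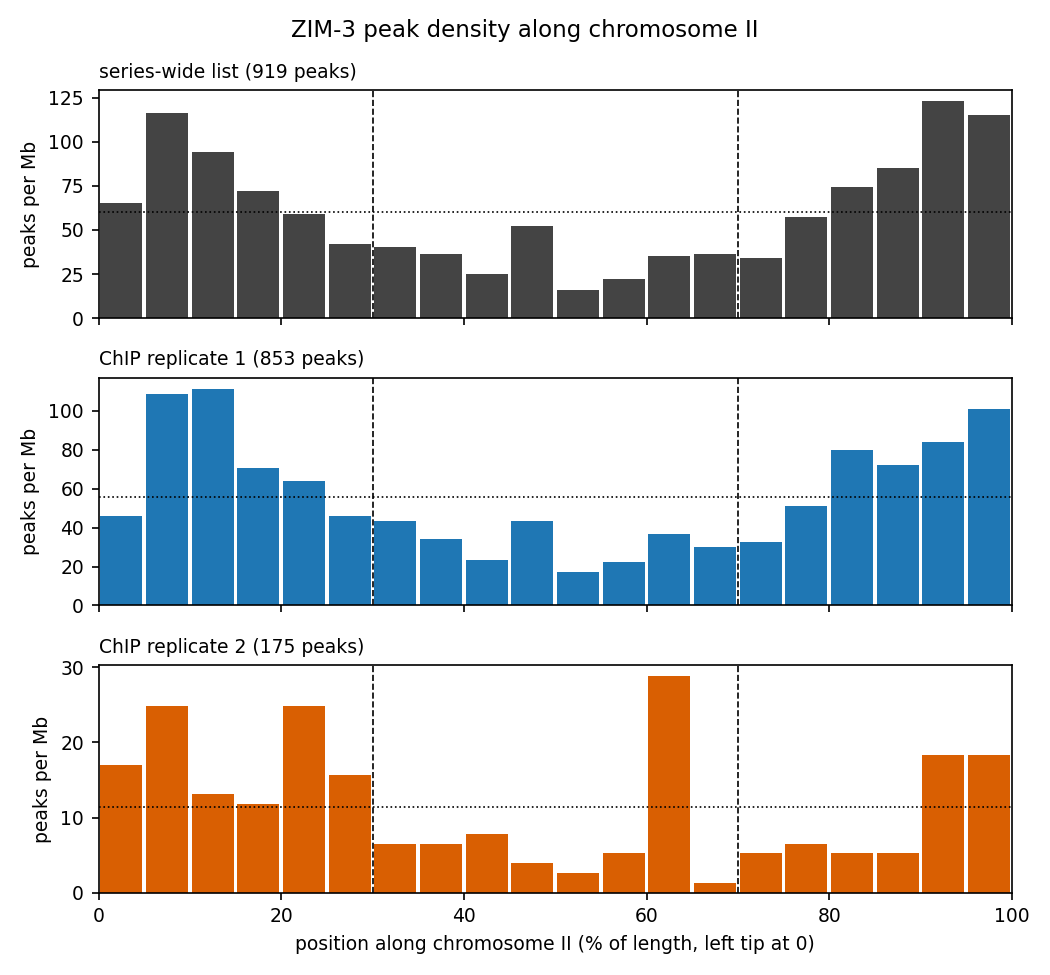
Peaks per Mb along chromosome II in steps of 5% of its length, for the series-wide list and both replicate lists, each on its own scale; the dotted line is the mean over II and dashed lines bound the arms. The series-wide list and replicate 1 are high towards both sides but lower in the first step (65.4 and 45.8 peaks per Mb), while replicate 2 is highest at 28.8 per Mb in the step from 60% to 65%.

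The strongest peaks of II were spread over all 3 zones. Of the 10 highest, 1 was in the left arm, 4 in the right arm and 5 in the center, and all 10 overlapped a peak of both replicates. Of the 50 highest, 22 were in the left arm, 12 in the right arm and 16 in the center, and of the 100 highest 47, 25 and 28 in the same order. The right arm, with 374 of the 919 peaks, held 12 of the 50 highest. Of the highest-scoring 10% of all nuclear peaks (9.99% with ties, score 26.0 or more), II held 104, which is 11.3% of its peaks (interval 9.43% to 13.5%). The shares were 8.42% on III, 9.69% on IV, 9.25% on V and 13.3% on X. Of the 100 highest nuclear peaks 9 were on II, and of the 50 highest 4. Both counts were below the 13.8% of all nuclear peaks that lay on II.

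The highest peak of II was in the left arm at II:1450353-1455385, with a series-wide score of 102.60 and rank 15 among nuclear peaks. It was 5033 bp wide and overlapped 2 peaks of replicate 1, the higher scoring 3100, and 5 of replicate 2, the highest scoring 1442.38. With a reciprocal overlap of 50% it had a counterpart in 1 replicate, and with midpoints within 200 bp in 0. Its neighbour II:1455566-1458877 scored 70.12 and was found in both replicates too, with 3100 in replicate 1 and 1296.96 in replicate 2. The pair belonged to a run of 12 series-wide peaks from II:1447143 to II:1462074, of whose other members 9 were found in replicate 1 alone and 1 in neither list. The median score of that run was 6.49, so the pair stood far above the peaks around it.

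In the center, 4 of the 5 leading peaks lay left of the middle. II:5844590-5844976 scored 95.50 and was 387 bp wide, with 445.61 in replicate 1 and 761.28 in replicate 2. II:5543358-5543703 scored 79.59 and was 346 bp wide, with 282.88 in replicate 1 and 695.00 in replicate 2. These were the narrow ones among the 10 highest, whose median width was 2424 bp. The broad II:8288280-8292777 (score 89.14, 4498 bp) and II:5144454-5146782 (score 72.83, 2329 bp) had a score of 3100 in both replicate lists. At II:4641156-4645072, just inside the center, 3 peaks of replicate 1 reached at most 767.72 while 1 peak of replicate 2 scored 3100. The replicate lists thus ranked this broad site differently.

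In the right arm the leading peaks were broad and mostly near the end. II:12843636-12846153 (score 89.73, 2518 bp) and II:14337464-14339229 (score 85.92, 1766 bp) had 3100 in both replicate lists. II:13984780-13986770 scored 74.65, with up to 3038.36 in replicate 1 and 2512.66 in replicate 2. II:15138154-15140953 scored 74.54, with 3100 in replicate 1 and at most 438.88 over 4 overlapping peaks in replicate 2. The first of these lay at 84.1% of the length and the others between 91.5% and 99.1%.

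In the replicates' own lists, 23 peaks of replicate 1 on II scored 3100 or more, 17 of them exactly 3100. In replicate 2, 5 peaks did, all at exactly 3100. With so many peaks tied at 1 value, scores of 3100 and above were not read as an order of strength. All 5 of replicate 2 were found in replicate 1, and all 28 were in the series-wide list. The same held for such peaks on every other nuclear chromosome. In replicate 1 they were 23 of 853 peaks on II and 127 of 6079 over the nuclear genome. In replicate 2 they were 5 of 175 and 64 of 1211. None of the 5 in replicate 2 lay in the left arm, with 2 in the right arm and 3 in the center. In replicate 1, 12 lay in the left arm, 7 in the right arm and 4 in the center. The replicate 1 peak with the largest listed score, II:3226744-3228653 in the left arm, had 3209.88. It had no counterpart in replicate 2, and the series-wide peak there scored 39.78. The left-arm peak II:16256-18139 scored 3137.77 in replicate 1 and was likewise absent from the list of replicate 2. The first tied peak of replicate 2 was II:4641174-4645095 in the center.

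The first series-wide peak of II, II:1-438, lay at the left tip. It scored 70.41 and was found in both replicates, at 883.46 in replicate 1 and 926.52 in replicate 2. The last, II:15279009-15279348, whose end was taken as the length of II, scored 28.68 and overlapped no peak of either replicate. It was also the highest of all the peaks of II found in neither list.

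In the series-wide list, peaks of II were of ordinary score and slightly wide. Their median score was 7.46 (quartiles 4.885 and 13.95), equal to the median of 7.46 over all nuclear peaks, against 7.40 on III, 7.89 on IV, 7.08 on V and 7.89 on X. The replicate lists differed: the median score on II was 142.1 against 134.3 over all nuclear peaks in replicate 1, and 130.6 against 153 in replicate 2. Series-wide, the median width was 292 bp on II, against 273 bp on III, 290 bp on IV, 276 bp on V and 275 bp on X. In replicate 1 the peaks of II had a median width of 304 bp against 293 bp over all nuclear peaks, and in replicate 2 420 bp against 439 bp. Peaks of 1 kb or more made up 11.1% of the peaks of II (102 peaks), against 9.09% of all nuclear peaks. In replicate 1 they made up 11.4% on II and 8.55% over the genome, and in replicate 2 16.6% on II and 18.9% over the genome. A greater share of broad peaks on II was thus not common to the lists.

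Score varied along II. The median was 8.37 in the left arm, 6.84 in the right arm and 7.69 in the center. In replicate 1 it was 159.6 in the left arm, 126.7 in the right arm and 141.2 in the center, and in replicate 2 147.7 in the left arm, 104.9 in the right arm and 182.6 in the center, each on the scale of its own list. The right arm was lowest in all 3 lists. Broad peaks were 13.1% of the left arm, 8.56% of the right arm and 12.4% of the center in the series-wide list. In the same order they were 13.5%, 8.10% and 13.1% in replicate 1, but 13.4%, 13.3% and 25% in replicate 2. Width and score went together on II, with a Spearman's rho of 0.68 over 919 peaks, against 0.61 on III, 0.62 on IV, 0.65 on V and 0.64 on X. Both are read from the same reads of the same peak.

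The 5 widest peaks of II were not among its 10 highest. The widest, II:9814473-9821744 in the center, was 7272 bp and scored 18.68. It spanned 3 peaks of replicate 1, up to 1690.64, and 9 peaks of replicate 2, up to 322.51. The next were II:1977401-1983486 (6086 bp, score 29.81), II:2003928-2009806 (5879 bp, score 29.70) and II:1961691-1967295 (5605 bp, score 23.80), all in the left arm. These 3 overlapped peaks of replicate 1 alone, reaching 3100, 2387.03 and 3195.28. The last of the 5, II:3163362-3168574 (5213 bp, score 20.75), also in the left arm, overlapped 4 peaks of replicate 2, up to 1313.01, and none of replicate 1. Wide sites of II thus included sites called in only 1 replicate list, of either kind.

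Replicate support on II was close to that of the genome. Of its 919 series-wide peaks, 99 overlapped a peak of both replicates by at least 1 bp (10.8%, interval 8.93% to 12.9%), against 10.6% of all nuclear peaks. With a reciprocal overlap of 50% the share on II was 5.99%. Another 584 (63.5%) overlapped a peak of replicate 1 alone, against 62.0% of all nuclear peaks. For replicate 2 alone there were 24 (2.61%, against 3.40%), and for neither list 212 (23.1%, against 24.1%). The share found in both was 10.4% on III, 9.76% on IV, 9.11% on V and 14.8% on X. Peaks of II found in both replicates had a median score of 31.3 and a median width of 966 bp. Those found in replicate 1 alone had 8.30 and 310 bp, and those found in neither list 4.28 and 185 bp. Over all nuclear peaks the values were close to these, at 31.73 and 895 bp, 8.465 and 292 bp, and 4.38 and 187 bp. A wider peak meets an overlap of 1 bp more easily, so width and support are not separate measures.

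**Figure D3:**
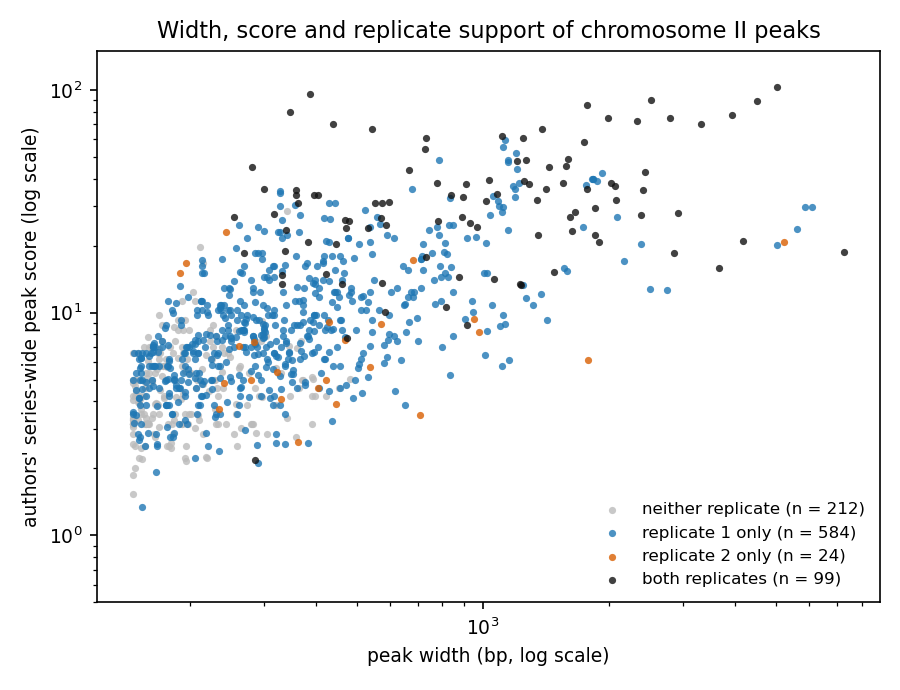
Width in bp against the authors' series-wide score for the 919 peaks of chromosome II, both on log scales, coloured by the replicate lists that hold an overlapping peak. The 99 peaks found in both replicates lie towards the upper right (median score 31.3, median width 966 bp) and the 212 found in neither towards the lower left (4.28 and 185 bp).

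Support differed between the zones of II. In the left arm 46 of 343 peaks were found in both replicates (13.4%, interval 10.2% to 17.4%). In the right arm 22 of 374 were (5.88%, interval 3.92% to 8.75%), and in the center 31 of 202 (15.3%, interval 11% to 21%). The share found in neither list was 17.5% in the left arm, 28.1% in the right arm and 23.3% in the center. Over all nuclear peaks, 9.95% in left arms, 10.8% in right arms and 11.1% in centers were found in both. Those found in neither list were 25.5%, 24.6% and 21.2% in the same order. The right arm of II had the lowest share found in both replicates of the 18 zones of the 6 chromosomes, with the left arm of IV next at 6.01%. The right arms of III, IV, V, X and I had 9.48%, 14.6%, 9.11%, 13.1% and 12.6%. The same replicate 2 peaks underlie this share and the low count of replicate 2 in the right arm, so the values are not separate observations.

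The right arm also had the lowest scores, and the part of score in its low support was not tested beyond a split by score. With the 919 peaks split into 4 equal groups by score, the highest group (score 13.95 to 102.6) held 89 of the 99 peaks found in both replicates. Within it, 41 of 102 left-arm peaks (40.2%, interval 31.2% to 49.9%), 18 of 69 right-arm peaks (26.1%, interval 17.2% to 37.5%) and 30 of 59 center peaks (50.8%, interval 38.4% to 63.2%) were found in both. Replicate 1 alone held 72.5% of the right-arm peaks of that group. Among the peaks of II in the highest 10% of the nuclear list, 30 of 48 in the left arm, 12 of 26 in the right arm and 21 of 30 in the center were found in both. Those shares were 62.5%, 46.2% (interval 28.8% to 64.5%) and 70%. Over all nuclear peaks of that 10% they were 64.5%, 62.4% and 63.9%, so the right-arm interval of II held the nuclear share. In the lower groups 1 of 230, 0 of 230 and 9 of 229 peaks were found in both, from low to high. The share of 0 has an upper interval bound of 1.64%.

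**Figure D4:**
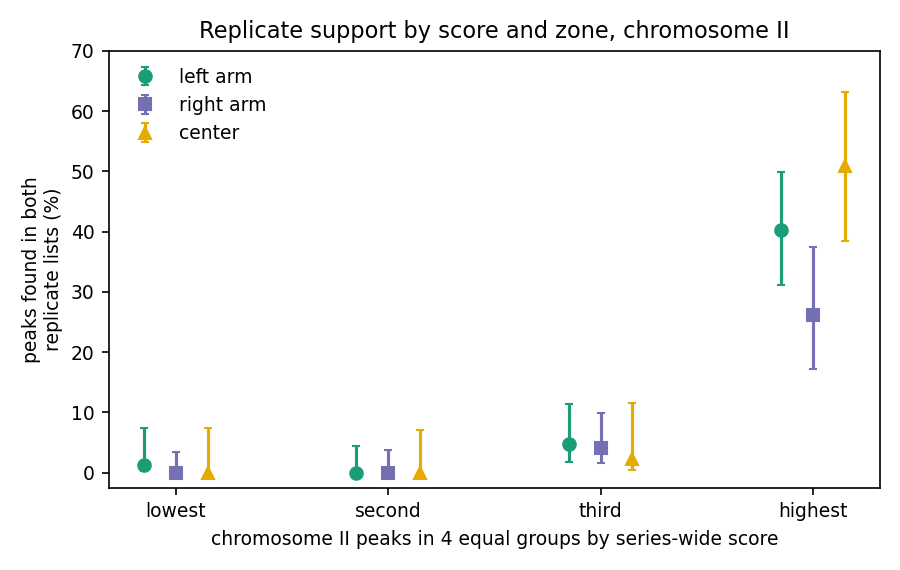
Percentage of chromosome II peaks found in both replicate lists (at least 1 bp of overlap) in each of 4 equal groups by series-wide score, by zone; bars are Wilson 95% intervals that cover counting error only. Support is concentrated in the highest group, at 40.2% in the left arm, 26.1% in the right arm and 50.8% in the center.

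Overlap of the replicates' own lists on II depended on which list was counted. Of the 175 replicate 2 peaks, 143 (81.7%, interval 75.3% to 86.7%) had a counterpart in replicate 1, against 76.8% of all replicate 2 peaks. Of the 853 replicate 1 peaks, 117 (13.7%, interval 11.6% to 16.2%) had one in replicate 2, against 13.8% of all replicate 1 peaks. Both shares depended on the overlap asked for: with a reciprocal overlap of 50% they were 36.6% for replicate 2 and 7.50% for replicate 1, and with midpoints within 200 bp 49.1% and 9.97%, in the same order. By zone, 66 of 82 replicate 2 peaks in the left arm (80.5%), 31 of 45 in the right arm (68.9%) and 46 of 48 in the center (95.8%) were found in replicate 1. The series-wide list held 753 of the replicate 1 peaks of II and 171 of the replicate 2 peaks. For 79 pairs on II overlapping 1 to 1, the replicates' scores had a Spearman's rho of 0.27, against 0.35 over 585 nuclear pairs. With both scores below 3100 it was 0.22 over 69 pairs on II and 0.17 over 505 nuclear pairs. This is a description across peaks of the same 2 libraries.

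Clusters were defined as runs of at least 5 peaks with at most 5 kb between neighbours. Chromosome II had 34, holding 254 of its peaks (27.6%), against 33.5% of all nuclear peaks. With gaps of at most 2 kb the share was 18.5% on II and 18.85% of all nuclear peaks. With 10 kb it was 41.7% and 47.9%, so the distance of II from the genome depended on the gap. With the 5 kb rule it was 25.5% on III, 39.0% on IV, 42.2% on V and 29.3% on X. In replicate 1 it was 27.0% on II and 28% over the genome, and in replicate 2 38.3% on II and 29.5% over the genome, so II was not below the genome in both lists. Of the 34 clusters, 14 lay in the left arm with 107 peaks, 16 in the right arm with 124 and 4 in the center with 23. They spanned 2.45 to 26.6 kb, with a median of 8.94 kb. All 34 contained a peak of replicate 1, and 14 also contained a peak of replicate 2: 8 of 14 in the left arm, 4 of 16 in the right arm and 2 of 4 in the center. The 254 peaks in clusters and the 665 outside both had a median score of 7.46, and 10.2% (interval 7.08% to 14.6%) and 11% (interval 8.82% to 13.6%) of them were found in both replicates. The median width was 328.5 bp in clusters and 279 bp outside. Replicate 2 alone held 16 of the peaks in clusters (6.30%, interval 3.91% to 9.99%) and 8 of those outside (1.20%, interval 0.611% to 2.36%), and 9 of the 16 lay in 1 right-arm cluster, II:14323912-14346565.

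The 3 largest clusters differed in which replicate they came from. The largest, II:996830-1020691 in the left arm, had 16 series-wide peaks, 14 of replicate 1 and 0 of replicate 2. Its peaks scored 4.12 to 15.89 and covered 30.6% of it. The median step between midpoints was 1.53 kb series-wide (quartiles 0.959 and 1.68 kb, range 0.607 to 4.58 kb). In replicate 1 it was 1.65 kb (quartiles 1.5 and 1.76 kb, range 0.873 to 5.31 kb).

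The second, II:14323912-14346565 in the right arm, had 14 series-wide peaks, 2 of replicate 1 and 11 of replicate 2. Of its series-wide peaks 9 overlapped replicate 2 alone, 1 replicate 1 alone, 1 both and 3 neither. The peak found in both was II:14337464-14339229, the fifth highest of II. Without it the cluster's peaks scored 3.89 to 16.21. II had 24 peaks found in replicate 2 alone in all.

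The third, II:1959403-1986046 in the left arm, had 13 series-wide peaks that covered 86.7% of its 26.6 kb. It held 19 peaks of replicate 1, scoring 82.97 to 3195 and covering 83.8% of it, and 5 of replicate 2, scoring 77.15 to 523 and covering 11.2%. Of its series-wide peaks 5 were found in both replicates, 6 in replicate 1 alone and 2 in neither. It holds 2 of the 5 widest peaks of II.

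In the arms, the densest fixed windows of 100 kb overlapped the 2 largest clusters but also held peaks outside them. The densest in the left arm, II:1000001-1100000, held 31 series-wide peaks, 24 of replicate 1 and 5 of replicate 2. The densest in the right arm, II:14300001-14400000, held 25, with 6 of replicate 1 and 11 of replicate 2. In the center the densest, II:7400001-7500000, held 11, with 7 of replicate 1 and 1 of replicate 2. The densest window of replicate 2, II:9800001-9900000 in the center, held 17 of its peaks and 7 of replicate 1. Only 4 series-wide peaks lay there, but they covered 16.2% of it and all 4 were found in both replicates. These 17 peaks were most of the 22 in the fullest step of replicate 2, and the widest peak of II lies among them.

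Of 153 windows on II, 12 held no series-wide peak, 11 no peak of replicate 1 and 83 no peak of replicate 2. The 3 longest stretches without a series-wide peak were all in the center. The longest, II:7518005-7784701, ran over 266.7 kb and held no peak of either replicate list by midpoint. The others, II:7171948-7379658 (207.7 kb) and II:6300070-6504837 (204.8 kb), each held 1 peak of replicate 1 and 0 of replicate 2. In replicate 2 the longest stretch, II:7448271-8287510 in the center, ran over 839.2 kb, in which replicate 1 had 18 peaks.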

How the data were processed

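The authors deposited 3 peak lists with positions and a score for each peak. Positions follow WormBase WS220, per the file headers, and the lists name MACS for both replicates and MACS v2 for the series-wide calls. The submitters' processing notes name BWA and ce10. Parameters, control, filters and the way replicates were combined are not given in the sources used here. On II the score deposited by the authors had extremes of 1.34 and 102.6 (series-wide), 50.03 and 3210 (replicate 1) and 50.07 and 3100 (replicate 2). Its scale is not named, so it was used within lists. Per the labels' protocols, ground frozen worms were fixed with 1% formaldehyde for 10 minutes.

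Python 3.11.15 with pandas 2.3.3, numpy 2.4.6 and scipy 1.17.1 was used, and values were plotted with matplotlib 3.10.9. The 13 mitochondrial peaks were left out. Zone, overlap and cluster routines were checked on simulated lists. Named sites are the 10 highest and 5 widest peaks of II, its 3 largest clusters, the densest windows, the leading peak of each replicate, the highest peak found in neither list, and the first and last peaks. Neighbours of these sites, and II:16256-18139, were added after their values were seen. The chromosome and the settings were chosen with earlier results of these data known. No genome or gene annotation was used, and sequences and genes at the peaks were not analysed here. Alternatives were replicate lists, score thresholds, merging, covered bases and other overlap, arm, cluster and window rules.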

Additional observations from a re-analysis of the deposited data

How the results depend on the processing

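Zone shares are given here as ratios to the share of length, and density, width and score on II as ratios to all nuclear peaks of the same list. The right arm of II, at 1.36, was below its length share in replicate 2's list (0.857), in that list without the densest window of each zone (0.833) and in the highest-scoring replicate 1 peaks (0.990). The last 2 of these settings were chosen after seeing the data. Taking each replicate's own list gave 0.857 to 1.25 for the right arm, 1.33 to 1.56 for the left arm (1.24 as reported) and 0.560 to 0.686 for the center (0.550). The left arm was 1.45 by covered bases, 1.58 in the highest-scoring replicate 1 peaks and 1.74 in replicate 2 without dense windows. The center was 0.781 after merging peaks within 10 kb, and stayed below 1 in all 10 alternatives run. Density on II, at 0.907, was 0.970 after merging and 0.921 to 0.948 in the replicates' own lists. Median width, at 1.05, was 0.957 to 1.04 there and median score, at 1, was 0.853 to 1.06.

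The share of II peaks found in both replicates, 10.8%, was 5.99% with reciprocal overlap of 50%, 7.51% with midpoints within 200 bp and 20.9% in the higher-scoring 50% of peaks. Asking for 1 replicate gave 13.4% to 74.3%. The share of replicate 1 peaks found in replicate 2, 13.7%, was 7.50% and 9.97% under the same overlap rules and 44% in its highest-scoring peaks. That of replicate 2 peaks in replicate 1, 81.7%, was 36.6% and 49.1%. The share in clusters, 27.6%, was 18.5% with gaps of 2 kb, 41.7% with 10 kb, 52.9% with at least 3 peaks, 7.18% with at least 10 and 11.5% in the higher-scoring 50%. All nuclear peaks gave 18.85%, 47.9%, 56.55%, 12.7% and 13.6% in the same order. The replicates' own lists gave 27.0% to 38.3%. The densest window, with 31 peaks, held 17 to 24 in the replicates' lists and 20 with 50 kb (II:14300001-14350000). By covered bases it was II:1900001-2000000, with 18 peaks. Within the limits set lay 30 alternatives, some of them named above. Another 28 lay outside the limits, and 4 more gave a ratio on the other side of 1. For zones, density, width, score and clusters the limit was the standard deviation of the 2 replicates' own values. It is wide where the replicates differ. Among these 30, the left arm ran from 1.09 after merging to 1.38 in the higher-scoring 50%. The right arm ran from 1.12 by covered bases to 1.52 with arms of 25%, and was 1.20 after merging. Of 20 overlap checks at the 10 highest sites, 5 found fewer replicates. The highest, II:1450353-1455385, fell to 1 by reciprocal overlap and 0 by midpoints. II:13984780-13986770 fell to 0 by midpoints. II:4641156-4645072 and II:15138154-15140953 each fell to 1 by reciprocal overlap. The cause was not tested.

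With unknown depth, a peak missing from replicate 2 does not show that binding was absent. No paired analysis was possible because only ChIP samples, all of 1 group, have peaks to compare.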
